A study of Homo sapiens with 6 samples.

Results

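The 10 genes described here encode phospholipase C isoforms: PLCB1, PLCB2, PLCB3 and PLCB4 of the beta class, PLCG1 and PLCG2 of the gamma class, PLCD1 and PLCD3 of the delta class, PLCE1 (epsilon) and PLCH2 (eta). They are 10 of the 61541 rows of a table of RNA-seq fragment counts, found by gene symbol. The set was proposed with the difference between the cell lines already known, so the members' levels and fold changes are given as a description and no test is drawn from them. The lines are parental MDA-MB-231, an established human triple-negative breast cancer line, and MDA-MB-231-D3H2LN (MDA231-LN), a commercial derivative that carries luciferase and was obtained from a mouse lymph node metastasis. Total RNA from both was sequenced in bulk, 3 libraries per line, from cells with no stated treatment in high-glucose DMEM with 10% serum. Each kind of cell is 1 line, so lymph node origin, the luciferase and passage through mice cannot be told apart.

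Phospholipase C enzymes cleave the membrane lipid phosphatidylinositol 4,5-bisphosphate (PIP2) into inositol trisphosphate (IP3), which releases calcium from the endoplasmic reticulum, and diacylglycerol, which recruits protein kinase C and related proteins to membranes. The classes differ in what switches them on: beta isoforms answer to the alpha subunits of Gq proteins and to G protein beta-gamma subunits, gamma isoforms to receptor and cytoplasmic tyrosine kinases, and epsilon to small GTPases of the Ras superfamily. Delta and eta isoforms are sensitive to calcium. In breast cancer cells these enzymes are best known for linking growth factor and protease-activated receptors to migration.

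The libraries held 16461578 to 19171017 counted fragments. Levels are in CPM, the usual count per library total after TMM scaling. The lines stood apart on principal component 1 of the log2 CPM values (86.5% of variance). Libraries of 1 line differed beyond sampling noise (chi-square per degree of freedom 3.73 to 8.47), so all 6 were counted. Nothing in the labels says that they came from separate cultures, so SDs and p-values reflect only how far these samples spread, and that spread may be technical. Of 5 genes that mark this line, VIM, CD44, KRT8 and KRT18 were at 362.6 CPM or above on average in both lines and EPCAM at 13.0 and 15.2 CPM, and of the receptors low in triple-negative cells PGR had 1 count in all. ESR1, the estrogen receptor gene, was low but rose from 9 counts in the parental line to 54 in MDA231-LN (0.164 ± 0.231 to 0.951 ± 0.248 CPM, edgeR adjusted p = 0.00403), and ERBB2 was at 90.4 ± 4.32 and 89.8 ± 2.22 CPM. The 16 blood cell markers, 7 of them with no count (CD3E, CD2 and MS4A1 among these), summed to 9.80 to 11.9 CPM in the parental libraries and 7.20 to 9.31 CPM in MDA231-LN. The 5 endothelial markers summed to 9.70 to 14.9 CPM in the parental line and 9.99 to 11.1 CPM in MDA231-LN. Most of this was PECAM1, at 9.52 ± 2.26 and 8.59 ± 0.196 CPM. VWF (37 and 13 counts) and KDR (141 and 82) were lower in MDA231-LN (edgeR adjusted p = 0.0406 and 0.0238). CDH5 had 0 and 3 counts and TEK 5 and 7.

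Between the lines, 4 members were lower in MDA231-LN (PLCB4, PLCD3, PLCG1 and PLCB3), 3 were higher (PLCG2, PLCH2 and PLCE1), and PLCB1, PLCB2 and PLCD1 did not reach the threshold (Benjamini-Hochberg adjusted p under 0.05 in edgeR's quasi-likelihood test). All 10 members passed the filter on low counts. The set was proposed with this difference known, so the threshold only sorts the members and is not evidence for them. Over the 14176 genes tested the same threshold was passed by 62.8%, 31.6% higher and 31.2% lower, and nothing is read from the members' counts beside it. The members' median log2 fold change was -0.16 against 0.02 over all tested genes. Throughout, ± is the SD over 3 libraries for CPM and the standard error (SE) for log2 fold changes, which are MDA231-LN minus parental.

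**Figure D1:**
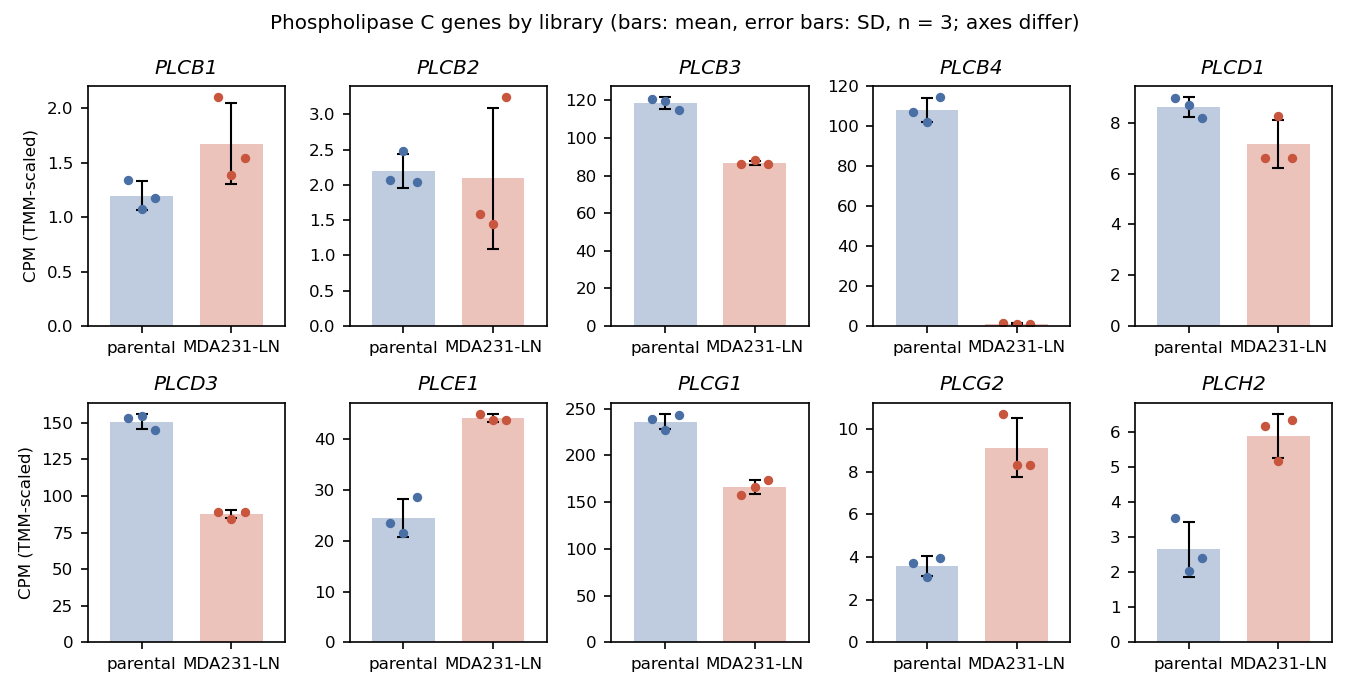
CPM of the 10 phospholipase C genes in each library (points), with the mean (bars) and SD (error bars) of the 3 libraries of each line; each panel has its own axis from 0. PLCB4 is at 102 to 114 CPM in the parental libraries and at 0.776 to 1.33 CPM in MDA231-LN.

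In GRCh38, PLCB1 lies on chromosome 20 (8077251 to 8968360), as do PLCB4 and PLCG1 (41136960 to 41196801). PLCH2 lies on chromosome 1 (2425980 to 2505532), PLCD1 on chromosome 3 (38007496 to 38029642), PLCE1 on chromosome 10 (93993931 to 94332823) and PLCB3 on chromosome 11 (64251530 to 64269150). PLCB2 lies on chromosome 15 (40278176 to 40307935), PLCG2 on chromosome 16 (81739097 to 81962685) and PLCD3 on chromosome 17 (45108959 to 45133354). The counts cover each whole span, exons and introns alike.

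PLCB4 was the member that differed most. It encodes a Gq-activated isoform best known from neurons and retina, lies on chromosome 20 from 9067825 to 9504593 of GRCh38, and shares no exonic base with another annotated gene. It stood at 107, 102 and 114 CPM in the parental libraries and at 1.33, 0.776 and 1.03 CPM in MDA231-LN. The lines were separated by a wide gap, with 1613 counts in the lowest parental library and 26 in the highest of MDA231-LN. The means were 108 ± 6.08 and 1.05 ± 0.278 CPM, a 102-fold lower level in MDA231-LN with a log2 fold change of -6.67 ± 0.13. This was the 41st lowest log2 fold change of the 14176 tested genes. In bulk libraries, fewer cells that express a gene and less RNA per cell cannot be told apart.

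PLCB3, the broadly expressed beta isoform, was the only other abundant member of its class. It was at 121, 120 and 115 CPM in the parental libraries and 86.4, 88.1 and 86.1 CPM in MDA231-LN. All MDA231-LN libraries lay below all parental ones, at a log2 fold change of -0.45 ± 0.06 (1.36-fold lower). PLCB1, which is known from brain and from nuclear inositol lipid signalling, was low, at 1.34, 1.08 and 1.18 CPM in parental cells and 2.10, 1.39 and 1.54 CPM in MDA231-LN. The MDA231-LN libraries were slightly above the parental ones, by 0.48 ± 0.39 on the log2 scale, which is little more than its SE. PLCB2, the isoform of blood cells, was at 2.07, 2.47 and 2.03 CPM in parental cells and 1.59, 1.44 and 3.24 CPM in MDA231-LN. Its lines overlapped and MDA231-LN replicate 3 stood alone at the top, and the log2 fold change was -0.06 ± 0.34.

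The beta class as a whole summed to 230 ± 3.80 CPM in parental cells and 91.7 ± 0.283 CPM in MDA231-LN. Without PLCB4 the sums were 122 ± 3.23 and 90.6 ± 0.501 CPM. PLCB4 therefore made up most of the difference in the summed level of its class, and PLCB3 nearly all of what was left in MDA231-LN.

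The gamma isoforms differed in opposite directions. PLCG1, the ubiquitous target of growth factor receptors, was the most abundant member by CPM, at 239, 227 and 243 CPM in the parental libraries and 158, 167 and 174 CPM in MDA231-LN. It was 1.42-fold lower in MDA231-LN with no overlap (log2 fold change -0.51 ± 0.06). PLCG2, the isoform that B cells and myeloid cells rely on, was at 3.72, 3.04 and 3.96 CPM in parental cells and 10.7, 8.32 and 8.33 CPM in MDA231-LN. Every MDA231-LN library was above every parental one, a 2.54-fold higher level (log2 fold change 1.35 ± 0.19). The blood cell markers given above did not move together. The myeloid gene CD33, the largest part of their sum, fell from 6.95 ± 0.251 to 3.37 ± 0.163 CPM. The myeloid receptor gene CSF1R was at 1.48 ± 0.25 and 2.46 ± 0.734 CPM with no overlap (edgeR adjusted p = 0.066), ITGAM had 2 and 15 counts with overlapping libraries, and the B cell gene CD79A had 0 and 11 counts. The part of these markers in the level of PLCG2 was not tested. PLCG1 also has 14.6% of its exonic bases and 32.5% of its whole span shared with other genes, where fragments are not counted. The shared part of the span was 21.1% for PLCB2, 13.0% for PLCG2, 11.8% for PLCE1 and at most 3.61% for the other members. The class sum, dominated by PLCG1, was 240 ± 8.73 CPM in parental cells and 175 ± 6.72 CPM in MDA231-LN.

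Of the delta isoforms, PLCD3 was lower and PLCD1 did not pass. PLCD3, an isoform of the plasma membrane and cleavage furrow, was at 153, 154 and 145 CPM in parental cells and 89.1, 84.3 and 88.8 CPM in MDA231-LN. The lines did not overlap and the level was 1.72-fold lower (log2 fold change -0.79 ± 0.06). PLCD1, a calcium-sensitive isoform that binds PIP2 through its PH domain, was at 8.96, 8.68 and 8.19 CPM in parental cells and 6.61, 8.26 and 6.63 CPM in MDA231-LN. MDA231-LN replicate 2 reached into the parental range, and the log2 fold change was -0.27 ± 0.16.

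PLCE1 and PLCH2 were both higher in MDA231-LN. PLCE1, which carries Ras-binding domains and an exchange factor domain beside its lipase core, was at 23.5, 21.5 and 28.7 CPM in parental cells and 45.0, 43.8 and 43.8 CPM in MDA231-LN. The groups were apart and the level was 1.79-fold higher (log2 fold change 0.84 ± 0.10). PLCH2, a calcium-sensitive isoform known from brain, was at 3.53, 2.03 and 2.41 CPM in parental cells and 6.15, 5.16 and 6.32 CPM in MDA231-LN. It was 2.21-fold higher without overlap (log2 fold change 1.14 ± 0.24).

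Of the 10 members, 4 lay wholly above and 4 wholly below in MDA231-LN, beside 33.8% and 32.8% of all tested genes (66.6% in either direction). The 2 members at least 2-fold higher were PLCG2 and PLCH2, and PLCB4 alone was at least 2-fold lower, beside 13% and 7.53% of all tested genes.

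Levels can be compared between genes only per length, here as CPM per kb of merged exons in GENCODE 29. Since the deposited counts cover introns as well, this scale overstates genes with long introns. In the parental line 4 members stood at 15.6 or above: PLCG1 (24.5 ± 0.855 CPM per kb), PLCB3 (23.9 ± 0.621), PLCD3 (22.4 ± 0.773) and PLCB4 (15.6 ± 0.881). The libraries of PLCG1 and PLCB3 overlapped, and the other steps among these did not. PLCD1 (2.00 ± 0.0902) and PLCE1 (1.90 ± 0.29) followed with overlapping ranges. PLCB2, PLCG2 and PLCH2 lay together between 0.246 and 0.298, each overlapping the next, and PLCB1 was lowest at 0.0688 ± 0.00763.

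In MDA231-LN the order was headed by PLCB3 (17.5 ± 0.215 CPM per kb) and PLCG1 (17.2 ± 0.82), whose libraries overlapped, followed by PLCD3 (13.0 ± 0.397). PLCE1 was then alone at 3.42 ± 0.0539, clear of PLCD1 at 1.66 ± 0.22. PLCG2 (0.679 ± 0.103), PLCH2 (0.545 ± 0.0583) and PLCB2 (0.284 ± 0.136) came next with no overlap between neighbours. PLCB4, at 0.151 ± 0.0403, overlapped the last member, PLCB1, at 0.0963 ± 0.0216. PLCB4 thus moved from the 4th to the 9th place of 10 per exonic length. Per kb of gene span, a scale that counts introns in full, it moved from the 5th to the 9th place.

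The members' summed level per exonic length was 91.1 ± 1.2 in the parental line and 54.5 ± 0.742 in MDA231-LN. PLCB4 supplied 17.2% of it in the parental line and 0.278% in MDA231-LN, while PLCE1 supplied 2.09% and 6.27%. The share of PLCB3 was 26.2% and 32.1% and that of PLCG1 26.9% and 31.6%. In CPM the 10 members summed to 656 ± 12.3 in the parental line and 412 ± 6.98 in MDA231-LN, and without PLCB4 to 548 ± 8.04 and 411 ± 7.03.

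**Figure D2:**
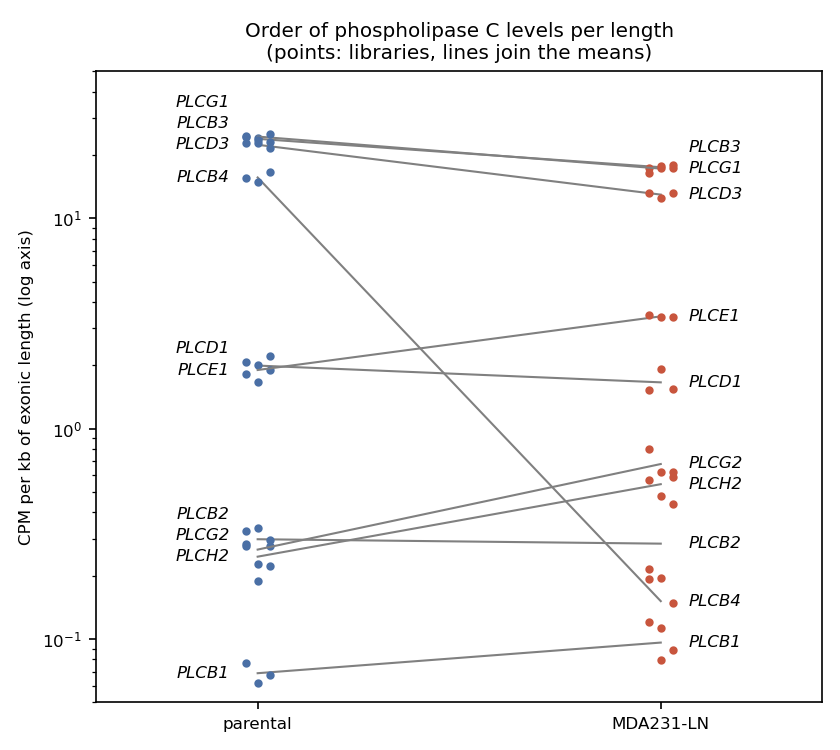
CPM per kb of exonic length (log axis) of each phospholipase C gene in the 3 parental and 3 MDA231-LN libraries (points), with lines joining the means. PLCB4 crosses from the group at the top, at 15.6 CPM per kb, to 0.151 CPM per kb, while the others shift by less than 3-fold.

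Because introns were counted, low values of long genes were set against gene span. PLCB1 spans 891.1 kb and had 61 counts over the 3 parental libraries, or 68.5 counts per Mb of span, and 108 per Mb in MDA231-LN. PLCB4 spans 436.8 kb and had 12613 counts per Mb in the parental line and 137 per Mb in MDA231-LN. Among the 508 protein-coding genes with a span of at least 400 kb the median was 122 counts per Mb in the parental line and 259 in MDA231-LN. PLCB4 in MDA231-LN and PLCB1 in both lines were therefore below the median of such long genes, and 44.1% of them were below PLCB4 in MDA231-LN against 97.2% in the parental line.

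Promoter sequences could be matched for 6 of the 10 members in the RefSeq table (GRCh38.p14). PLCB3, PLCG1 and PLCD3, the lower members with an entry, and PLCE1, PLCG2 and PLCH2, the higher ones, are those matched. PLCB4, the member that differed most, had no entry, and neither did PLCB1, PLCB2 or PLCD1. The 250 bases before each start were searched for the GC box GGGCGG, a motif bound by SP family factors, on both strands with overlapping matches counted. At least 1 match was found in 42.5% of the 34943 windows in the table and at least 3 in 13.8%. All 250 bases of the PLCG1 window and 67 of the PLCD3 window lie in annotated exons, as do 7 of the PLCB3 window. The windows of PLCD3, PLCB3 and PLCG1 held 6, 5 and 3 matches. Their GC content, exonic bases included, was 75.2%, 78.0% and 82.8% with 24, 27 and 41 CpG pairs. The higher members held fewer: PLCE1 none, PLCG2 1 and PLCH2 2 at its first listed start (1 at each of its other starts), with 3, 4 and 14 CpG pairs. GC content was 35.2% for PLCE1, 54.4% for PLCG2 and 70.8% for PLCH2 (66.8% at its other starts), against a median of 58.0% with 11 CpG pairs over all windows, so that PLCH2 lay above the median as the lower members did. The TATA box TATAAA was in none of these windows and in 10.8% of all. These are letters in a window of 250 bases before a listed start, and which start the cells used was not measured here. Only the PLCB3 and PLCG2 windows lie before the gene's span, and the others lie inside it. The windows are thus not of 1 kind, and nothing is read from the difference between lower and higher members.

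The windows of PLCB3, PLCE1, PLCG2 and the first listed start of PLCH2 are shown because they span the range from GC-rich to AT-rich; the GC boxes are in capitals, and all 4 run 5′ to 3′ on the plus strand. That of PLCB3 (chr11:64251280-64251522) lies just before the gene and ends 7 bases short of the listed start, where an annotated exon begins. Those of PLCE1 (chr10:94088776-94089025) and PLCH2 (chr1:2467201-2467450) lie inside the gene's own span but in no exon, and that of PLCG2 (chr16:81738791-81739040) lies before the gene. The windows of PLCG1 and PLCD3 fall within or across exons and are not printed.
PLCB3: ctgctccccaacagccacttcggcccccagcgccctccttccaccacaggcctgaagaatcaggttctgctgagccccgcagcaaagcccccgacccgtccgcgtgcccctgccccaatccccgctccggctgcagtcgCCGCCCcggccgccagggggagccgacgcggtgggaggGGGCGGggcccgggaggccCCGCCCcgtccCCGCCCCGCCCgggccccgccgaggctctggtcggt
PLCE1: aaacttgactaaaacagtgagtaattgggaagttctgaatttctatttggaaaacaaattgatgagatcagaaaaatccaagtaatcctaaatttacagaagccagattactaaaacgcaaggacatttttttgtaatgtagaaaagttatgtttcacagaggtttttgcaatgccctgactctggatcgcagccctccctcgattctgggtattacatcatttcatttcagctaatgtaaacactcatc
PLCG2: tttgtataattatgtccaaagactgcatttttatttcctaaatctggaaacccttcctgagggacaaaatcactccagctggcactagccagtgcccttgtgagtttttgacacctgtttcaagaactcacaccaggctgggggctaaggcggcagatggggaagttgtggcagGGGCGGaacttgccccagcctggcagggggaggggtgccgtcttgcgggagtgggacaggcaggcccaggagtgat
PLCH2: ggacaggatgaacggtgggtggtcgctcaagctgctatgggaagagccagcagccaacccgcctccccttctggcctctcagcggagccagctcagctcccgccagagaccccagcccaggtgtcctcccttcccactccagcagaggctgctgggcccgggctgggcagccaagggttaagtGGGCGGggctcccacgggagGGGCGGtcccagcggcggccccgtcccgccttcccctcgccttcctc
The boxes of PLCB3 all lie in the part of its window nearer the start, PLCG2 and PLCH2 carry isolated boxes, and PLCE1 has none.

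Beside the 10 members, 7 other genes of the phospholipase C family were listed and 5 could be tested. Of these, 4 rose and 1 fell (edgeR quasi-likelihood, Benjamini-Hochberg adjusted p under 0.05), or 4 and 0 with upper-quartile scaling. Over all tested genes 62.8% passed that threshold, and nothing is read from a count of 5 genes. The calls of PLCL2 and PLCD4 depended on the settings, as given below. PLCH1, the other eta isoform, rose from 4.51, 4.50 and 2.46 CPM in the parental libraries to 15.1, 15 and 16.1 CPM in MDA231-LN. This is a log2 fold change of 2.02 ± 0.18 (edgeR adjusted p = 2.95e-10) and the lines did not overlap. The phospholipase C-like gene PLCL1, whose product binds IP3 but lacks lipase activity, rose from 0.609, 0.317 and 0.642 CPM to 2.46, 2.11 and 1.70 CPM (log2 fold change 1.97 ± 0.44, edgeR adjusted p = 0.000331). PLCL1 spans 768.0 kb and had 35.2 counts per Mb of span in the parental line and 155 in MDA231-LN. These were below the medians of the long genes given above (122 and 259), and the part of introns in its rise was not tested. Its relative PLCL2 went from 15.9 ± 0.80 to 19.1 ± 0.638 CPM (log2 fold change 0.26 ± 0.11, edgeR adjusted p = 0.0454), and its call was lost under 7 of 13 alternatives.

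PLCXD2, which encodes a protein with the lipase X domain alone, rose from 8.29 ± 0.697 to 15.1 ± 0.981 CPM (log2 fold change 0.86 ± 0.14, edgeR adjusted p = 5.41e-06). PLCD4, a delta isoform, went from 1.10, 0.507 and 1.66 CPM to 0.563, 0.111 and 0.617 CPM; the lines overlapped, 33.5% of its exonic bases lie inside another gene, and the fall (edgeR adjusted p = 0.0441) was lost under 9 of 12 alternatives. PLCXD3 had no parental count and 15 counts in MDA231-LN, at least 4.46-fold higher when the floor is set at 3 counts per line. PLCZ1, the sperm isoform, had 0 and 3 counts, at or under that floor in both lines. Both eta isoforms were thus at a higher level in MDA231-LN, which is a description. The list that holds PLCH1 was also chosen with earlier results of these data known, so its p-value adds no evidence for PLCH2 or the class.

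**Figure D3:**
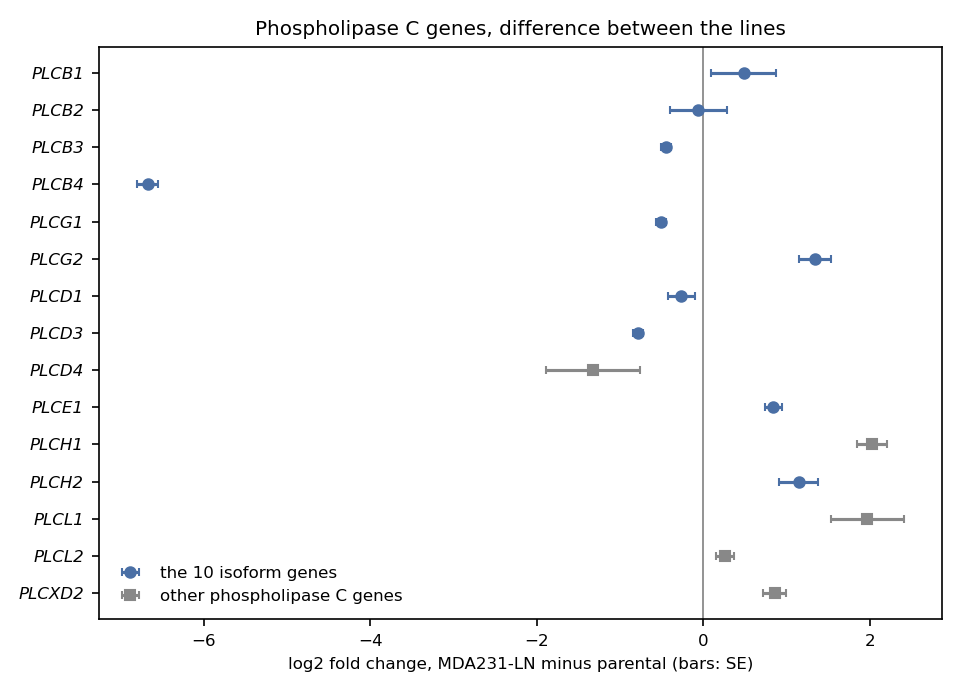
Log2 fold change (MDA231-LN minus parental) with SE for the 10 phospholipase C genes (circles) and 5 other genes of the family that could be tested (squares). PLCB4 lies at -6.67, and the others between -1.32 and 2.02.

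PLCB1 and PLCB4 are neighbours on chromosome 20, separated by 99464 bases, so the genes around them were compared. Of 35 other protein-coding genes within 5 Mb of the midpoint between them, 22 could be tested; 9 rose and 6 fell, with 2 rising and 0 falling at least 2-fold (edgeR quasi-likelihood, Benjamini-Hochberg). With upper-quartile scaling 10 rose and 3 fell. Over all tested genes 31.6% rose and 31.2% fell. Their median log2 fold change was 0.07 against 0.02 over all tested genes, and the lowest was -0.70. That of PLCB4 was -6.67.

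Within 1 Mb of PLCB1 or PLCB4, 3 other genes could be tested. TMX4, a thioredoxin-related membrane protein gene next to PLCB1, rose from 23.4 ± 3.58 to 30.8 ± 1.16 CPM (log2 fold change 0.40 ± 0.11, edgeR adjusted p = 0.00203). MKKS, a chaperonin-like gene, went from 46.0 ± 2.56 to 39.3 ± 1.41 CPM (log2 fold change -0.22 ± 0.08, edgeR adjusted p = 0.0175), and SLX4IP, a regulator of DNA repair, was at 13.6 ± 3.41 and 12.4 ± 0.807 CPM (edgeR adjusted p = 0.437). The call for MKKS was lost under 4 alternatives, among them upper-quartile scaling (edgeR adjusted p = 0.224). HAO1, on the side of PLCB1, and LAMP5 and PAK5, the genes next to PLCB4 on its far side, had no count in any of the 6 libraries. ANKEF1 and SNAP25 had none either, but all of their exonic bases lie inside other genes, so they could not be measured.

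**Figure D4:**
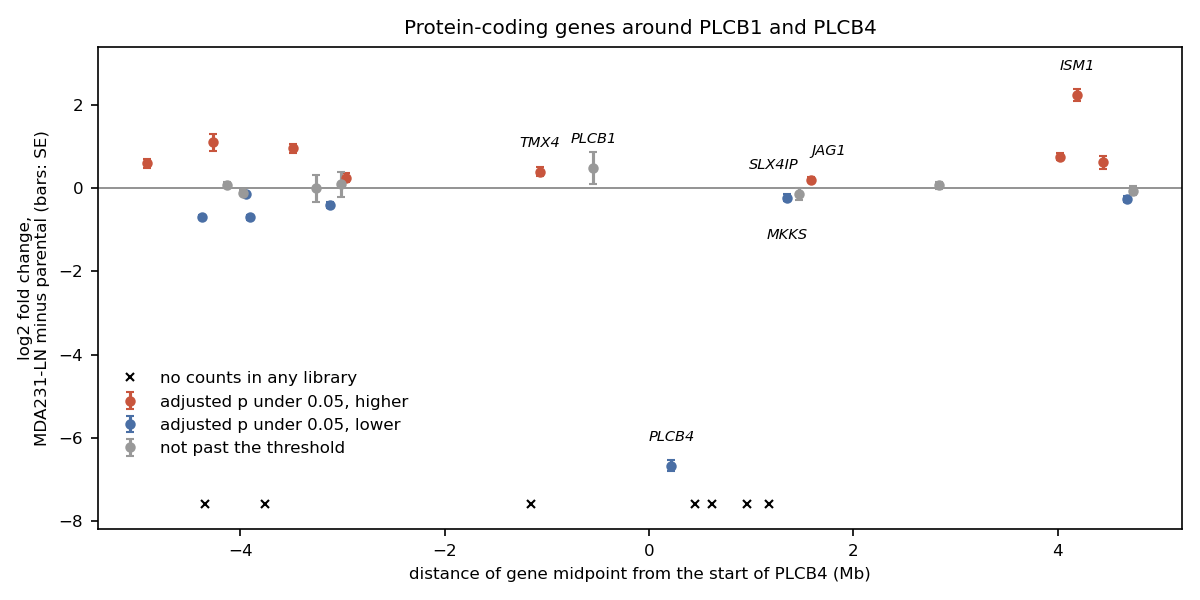
Log2 fold change with SE of the protein-coding genes within 5 Mb of PLCB1 and PLCB4, by distance of the gene's midpoint from the start of PLCB4 (Mb); crosses mark genes with no counts. PLCB4 lies at -6.67, the 22 other tested genes between -0.70 and 2.25.

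The 3 tested protein-coding genes whose profile over the 6 libraries was nearest to that of PLCB4 were STXBP6, DIAPH2 and TNFSF15, on chromosomes 14, X and 9. Likeness was the root-mean-square difference of mean-centred log2 CPM, which was 0.306, 0.311 and 0.312 for them. Each profile covers only 2 lines. STXBP6, a syntaxin-binding protein gene, had 1009 counts in the parental line and 2 in MDA231-LN, so that it was lower by a count ratio of 565 (95% counting interval 156 to 4676). DIAPH2, a formin gene with 61.7% of its exonic bases shared with another gene, was 106-fold lower and TNFSF15, a TNF family ligand gene, 86.8-fold lower in MDA231-LN.

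The genes that act before and after phospholipase C were grouped by role into lists, which with the 7 further family genes hold 248 genes. Of these 186 could be tested, and 72 rose and 57 fell, which is 69.4% past the threshold beside 62.8% of all tested genes. Under upper-quartile scaling, which took the median over every tested gene from 0.02 to 0.13 (log2), 86 rose and 50 fell. Both counts and medians below describe the lists, and all calls are edgeR quasi-likelihood with Benjamini-Hochberg adjustment over all tested genes. The genes named from the lists by size of change had to be called and to show no overlap between the lines. Both traits were therefore fixed by the choice. The largest edgeR adjusted p among them was 0.0133 (DGKA).

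**Figure D5:**
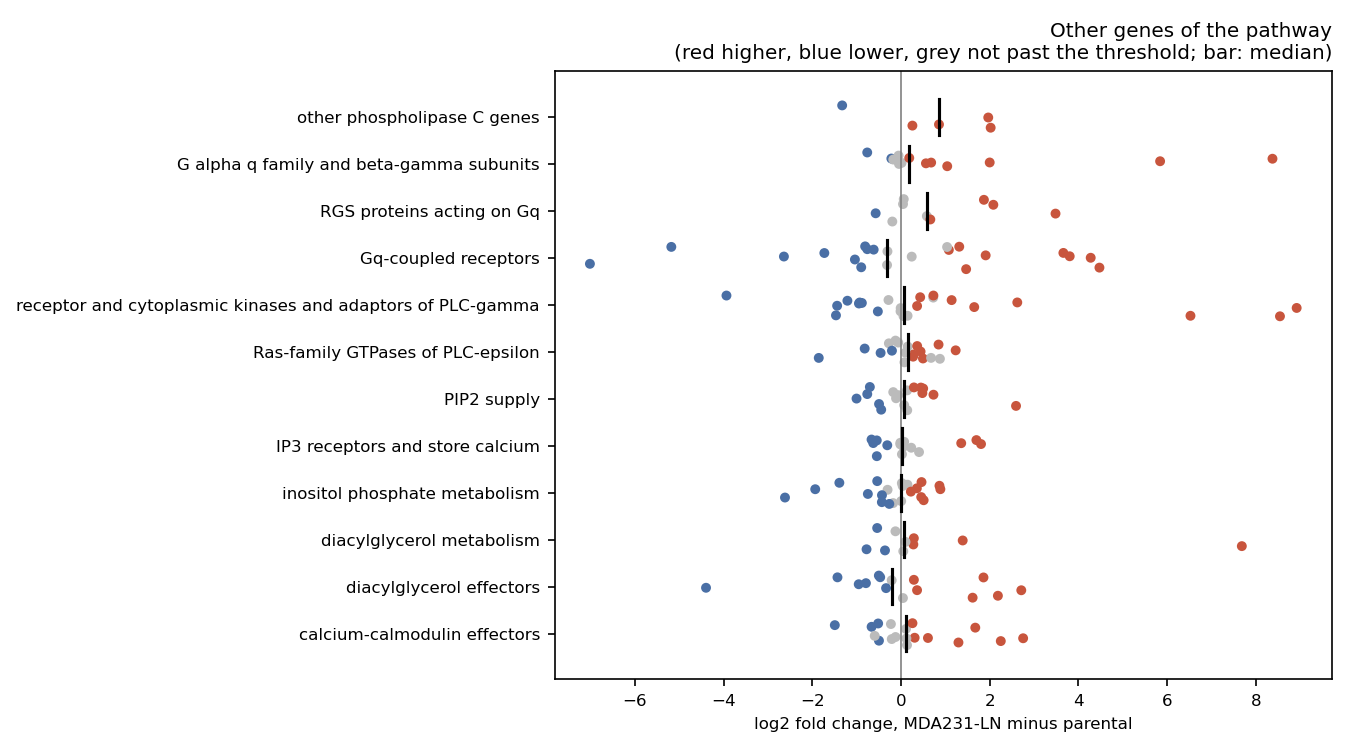
Log2 fold change of each tested gene in the lists of pathway genes (points; red past the threshold and higher in MDA231-LN, blue lower, grey not past it), with the median of each list (bar). GNB3, SYK and NTRK2, at the far right, had 0 parental counts, so their fitted values depend on the prior count.

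Receptors that couple to Gq, the switch of the beta isoforms, changed in both directions. Of 44 receptors 21 could be tested, and 8 rose and 9 fell; 8 of the rises and 5 of the falls were at least 2-fold. F2RL1, the protease-activated receptor 2 gene, fell from 458 ± 23.6 to 138 ± 9.85 CPM (log2 fold change -1.73 ± 0.06), and F2RL3, the thrombin-responsive receptor 4 gene, from 30.1 ± 2.19 to 0.836 ± 0.575 CPM (-5.18 ± 0.23). P2RY2, the receptor for extracellular ATP and UTP, fell from 28.9 ± 1.12 to 4.63 ± 0.348 CPM (-2.64 ± 0.13). The muscarinic receptor gene CHRM3 rose from 0.891 ± 0.577 to 12.9 ± 0.907 CPM (3.81 ± 0.26), the neurotensin receptor gene NTSR1 from 0.521 ± 0.262 to 10.1 ± 2.37 CPM (4.28 ± 0.30), and the prostaglandin F receptor gene PTGFR from 0.12 ± 0.127 to 2.78 ± 0.338 CPM (4.48 ± 0.57). The whole list summed to 788 to 887 CPM in the parental libraries and 373 to 383 CPM in MDA231-LN. Most of that difference was the fall of F2RL1 alone. Its median log2 fold change was -0.30. Of the 44, 12 share over 50% of their exonic sequence with other genes, where nothing was counted.

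G protein subunits included 7 that rose and 2 that fell among 13 tested (median log2 fold change 0.19). GNB3, a beta subunit, had 0 parental counts and 132 in MDA231-LN, at least 39.3-fold higher. The gamma subunit gene GNG2 rose from 0.0829 ± 0.0718 to 4.93 ± 0.535 CPM, with 43.9% of its exonic bases shared with another gene, and GNG7 from 3.97 ± 1.49 to 15.8 ± 0.668 CPM. Of the beta subunit genes that fell, GNB4 went from 135.5 ± 10.7 to 80.1 ± 5.18 CPM and the abundant GNB1 from 477.5 ± 25.5 to 411 ± 7.82 CPM, a call lost with upper-quartile scaling (edgeR adjusted p = 0.0757). The Gq-family alpha subunits in the list, which act on the beta isoforms, are also given, a choice made after their values were seen. GNAQ was at 53.8 ± 3.70 and 54.5 ± 6 CPM (edgeR adjusted p = 0.888). GNA11 rose from 106 ± 11.1 to 170 ± 5.96 CPM (edgeR adjusted p = 1.54e-09). GNA15 rose from 33.4 ± 4.13 to 49.3 ± 2.18 CPM (edgeR adjusted p = 4.44e-06). GNA14 had 2 and 5 counts and could not be tested.

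Proteins that end Gq signals, RGS proteins and receptor kinases, included 4 that rose and 1 that fell among 9 tested (median log2 fold change 0.58). RGS4 rose from 5.14 ± 1.04 to 21.7 ± 1.45 CPM. The receptor kinase genes GRK3 and GRK2 rose from 7.3 ± 0.916 to 26.7 ± 0.635 CPM and from 98.7 ± 5.10 to 156 ± 4.61 CPM. RGS19 fell from 39.6 ± 5.37 to 26.6 ± 2.05 CPM.

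Kinases and adaptors that act on the gamma isoforms included 9 that rose and 8 that fell among 23 tested (median log2 fold change 0.06). SYK, the kinase that feeds PLCG2 in B cells, had 0 parental counts and 192 in MDA231-LN (3.37 ± 0.562 CPM), at least 57.1-fold higher. NTRK2, a neurotrophin receptor gene, had 0 and 147 counts, at least 43.7-fold higher, and the fibroblast growth factor receptor gene FGFR2 had 3 and 347, a ratio of 103 (95% counting interval 35 to 503). ERBB3, a receptor gene of the EGFR family, fell from 6.09 ± 0.698 to 2.24 ± 0.323 CPM. CBL, a ubiquitin ligase for activated receptors, fell from 186 ± 20.9 to 67.6 ± 6.33 CPM.

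Small GTPases and their exchange factors, upstream of PLCE1, included 7 that rose and 4 that fell among 19 tested, or 11 and 3 with upper-quartile scaling (median log2 fold change 0.15). RHOB rose from 19.2 ± 2.53 to 45.1 ± 1.78 CPM, RHOC from 70.1 ± 8.88 to 126 ± 6.77 CPM with 83.6% of its exonic bases shared with another gene, and NRAS from 155 ± 6.94 to 219 ± 8.97 CPM. RAPGEF3, a cyclic AMP sensor that loads Rap, fell from 4.94 ± 0.193 to 1.36 ± 0.424 CPM (55.1% of its exonic bases shared with another gene). RALA fell from 96.4 ± 6.28 to 54.7 ± 2.45 CPM and RAP2C from 54.7 ± 5.45 to 39.9 ± 2.85 CPM.

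Enzymes that supply the substrate PIP2 included 6 that rose and 5 that fell among 17 tested (median log2 fold change 0.07). PIP5K1A, a kinase that makes PIP2, fell from 212 ± 7.41 to 106 ± 4.55 CPM. The phosphatidylinositol 4-kinase gene PI4KB fell from 126 ± 1.4 to 74.6 ± 5.41 CPM and CDS2, which makes the lipid precursor CDP-diacylglycerol, from 88.4 ± 1.72 to 54.4 ± 3.38 CPM. Its relative CDS1 rose from 0.582 ± 0.266 to 3.5 ± 0.715 CPM, the lipid transfer protein gene PITPNM1 from 55.5 ± 4.70 to 92.3 ± 1.08 CPM and PI4K2B from 34.5 ± 2.41 to 48.9 ± 2.28 CPM.

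On the IP3 branch, receptors and store calcium genes included 3 that rose and 5 that fell among 15 tested, or 4 and 4 with upper-quartile scaling (median log2 fold change 0.02). Named among those that fell were ITPR3, an IP3 receptor (from 438 ± 33.4 to 284 ± 18.5 CPM), the calcium pump gene ATP2A2 (from 895 ± 10.1 to 613 ± 19.6 CPM) and the store-operated channel gene ORAI1 (from 97.7 ± 9.05 to 61.7 ± 1.49 CPM). The pump gene ATP2A1 rose from 0.821 ± 0.402 to 2.15 ± 0.297 CPM. Enzymes of inositol phosphate metabolism included 7 that rose and 8 that fell among 21 tested, and all 3 differences of at least 2-fold were falls (median log2 fold change 0.01).

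Those 3 were ISYNA1, which makes inositol (21.4 ± 2.78 to 3.5 ± 0.592 CPM), and the phosphatase genes INPPL1 (272 ± 8.18 to 71.2 ± 0.0715 CPM) and OCRL (107.5 ± 1.15 to 41.1 ± 2.03 CPM). The IP3 kinase genes ITPKA and ITPKC rose, from 7.66 ± 0.535 to 14.2 ± 1.81 CPM and from 4.86 ± 0.315 to 8.89 ± 1.18 CPM. INPP5E, a lipid phosphatase of the cilium, rose from 32.8 ± 2.76 to 46.8 ± 1.51 CPM. Genes of calcium-calmodulin signalling included 7 that rose and 4 that fell among 18 tested (median log2 fold change 0.12). Among the NFAT factors, which calcineurin activates, NFATC4 (1.34 ± 0.34 to 9.07 ± 0.717 CPM) and NFATC1 (1.95 ± 0.395 to 9.37 ± 1.05 CPM) rose, whereas NFATC2 fell from 47.3 ± 3.36 to 16.8 ± 0.768 CPM. RCAN2, a calcineurin regulator, rose from 1.90 ± 0.457 to 6.07 ± 0.696 CPM. The kinase genes CAMK4 and CAMK2G fell from 27.5 ± 4.01 to 17.4 ± 1.81 CPM and from 88.1 ± 3.00 to 61.7 ± 1.64 CPM.

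On the diacylglycerol branch, enzymes that remove it included 4 that rose and 3 that fell among 10 tested, or 5 and 2 with upper-quartile scaling (median log2 fold change 0.08). The kinase gene DGKG had 2 parental counts and 541 in MDA231-LN (ratio 241, with a 95% counting interval of 66.5 to 1998), and DGKI rose from 2.78 ± 0.521 to 7.30 ± 0.884 CPM. The abundant DGKZ rose from 152 ± 5.98 to 186 ± 5.42 CPM. DGKH fell from 30.7 ± 3.15 to 17.9 ± 1.52 CPM, the lipase gene DAGLB from 54.7 ± 1.42 to 37.6 ± 5.53 CPM and DGKA from 16.8 ± 1.12 to 13.1 ± 1.14 CPM. The DGKA call was lost with upper-quartile scaling (edgeR adjusted p = 0.0813) and without MDA231-LN replicate 1 (edgeR adjusted p = 0.0637).

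Proteins that diacylglycerol recruits included 6 that rose and 7 that fell among 15 tested (median log2 fold change -0.21). PRKCE, a protein kinase C isoform gene, fell from 90.8 ± 2.55 to 33.7 ± 3.46 CPM and the protein kinase D gene PRKD3 from 105.4 ± 9.23 to 54.5 ± 4.37 CPM. The isoform genes PRKCQ and PRKCH, known from T cells and epithelia, rose from 0.874 ± 0.231 to 5.73 ± 0.175 CPM and from 1.85 ± 0.765 to 5.63 ± 0.87 CPM, the latter with 51.2% of its exonic bases shared with another gene. RASGRP3, a diacylglycerol-dependent activator of Ras and Rap, rose from 0.728 ± 0.358 to 2.71 ± 0.201 CPM with 49.9% of its exonic bases shared with another gene.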

How the data were processed

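RNA-seq counts from 3 libraries of each line were used. Per the file headers, the authors counted fragments with featureCounts 2.0.1 over whole gene spans (introns included) of Ensembl release 105 on GRCh38; the header names no strand, overlap or multi-mapping option, and by default strand is ignored and fragments that touch more than 1 gene or map to more than 1 place are not counted. Per the submitters' processing notes STAR, Subread and DESeq2 were also used; the STAR version is not given in the sources used here. The deposited values are raw counts, with 16461578 to 19171017 per library. Symbols were matched for 61369 of 61541 genes (99.7%), and exons came from GENCODE 29.

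Samples were grouped by cell line as labelled. The lines were compared with edgeR 4.0.16 (R 4.3.3; TMM, filterByExpr, quasi-likelihood test, Benjamini-Hochberg over 14176 genes, adjusted p under 0.05); the SE is the log2 fold change over the root of the F statistic. The floor for genes at 0, 3 counts summed per line, equals 0.059 CPM for parental cells and 0.0526 CPM for MDA231-LN; floors and intervals (95%, exact binomial) cover counting error only. The members and lists were chosen with earlier results of these data known. From each list the text names up to 3 called genes per direction with the largest log2 fold change, a mean of at least 1 CPM over the 6 libraries and no overlap between the lines; every family gene, every tested protein-coding gene within 1 Mb of PLCB1 or PLCB4, and the 3 genes nearest to PLCB4 are also named; some genes that meet this rule are not reported here. Where 3 IDs share a symbol near PLCB4 (MKKS), the longest was kept. The alternatives comprised upper-quartile and RLE scaling, a filter of 1 CPM in 3 libraries or none, a replicate block, DESeq2 1.42.0, limma-voom (limma 3.58.1) and leaving out each library. On simulated data for this comparison (14176 genes, 3 libraries per line), edgeR recovered 11.8% of 51 genes changed 1.2-fold, 79.7% of 59 at 1.5-fold, 89.6% of 48 at 2-fold and 97.6% of 42 at 4-fold, and called 11 unchanged genes. The simulation gave every gene the same dispersion and a mean level pooled over both lines. Its recovery rates may therefore be too high for genes that vary more between libraries. Only the genes listed here were changed in it, whereas 62.8% of tested genes passed the threshold in the data. The Benjamini-Hochberg adjustment is stricter when fewer genes change, so the rates may also be too low for this comparison. Summaries were made in Python 3.11.15.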

Additional observations from a re-analysis of the deposited data

How the results depend on the processing

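The members' calls, 3 higher and 4 lower, were the same in number under all 13 alternatives, and the log2 fold change of PLCB4 ranged from -6.88 to -6.51. The alternatives refit the same libraries or part of them, so they show dependence on processing and add no evidence for the members. PLCB2, which did not pass, changed sign with upper-quartile scaling (0.0489) and without parental replicate 2, MDA231-LN replicate 1 or MDA231-LN replicate 2 (0.02 to 0.14; range over left-out libraries -0.53 to 0.14), and SLX4IP, also not past the threshold, changed sign without parental replicate 3 (0.0852; range -0.25 to 0.0852). Of the genes near PLCB1 and PLCB4, 3 fell with upper-quartile scaling against 6 as reported; the cause was not tested. PLCD4 and PLCL2 lost their calls most often, with adjusted p up to 0.263 and 0.126. Over the 83 named genes tested, 1050 alternative values kept direction and call, 23 lost the call and 5 changed sign. The replicate numbers did not pair the libraries: same-numbered libraries had correlations of deviations of -0.0526 to 0.00241. With the number as a replicate block, 4325 genes rose and 4266 fell over all tested genes (4482 and 4422 without it), with 3 members higher and 4 lower, 71 pathway genes rising and 55 falling, and 9 and 5 neighbours; PLCD4 and PLCL2 lost their calls under it. Low counts limit PLCB1, PLCB2 and PLCD4, for which a library held 2 to 63 counts.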
